A study of Mus musculus with 5 samples.

Results

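The genes described here build and mineralize bone matrix. They are *Alpl*, *Bglap*, *Bglap2*, *Ibsp*, *Spp1*, *Sparc*, *Dmp1*, *Phex*, *Mepe* and *Ifitm5*, a list of 10 symbols that was matched to the Ensembl identifiers of the raw counts, and all 10 were found among its 30046 features. Their RNA was measured in sorted marrow stromal cells from femurs of mice at P21, in 3 libraries of cells descended from *Dlx5*-expressing fetal perichondrium (Dlx5CE-E12.5 cells, here the Dlx5 libraries) and 2 libraries of cells descended from *Fgfr3*-expressing fetal cartilage (Fgfr3CE-E12.5 cells, here the Fgfr3 libraries). The comparison asks how these cells, which share the marrow stroma but not their fetal source, differ in expression. Sorted cells were strongly positive for Cxcl12-GFP and positive for tdTomato, and their amplified cDNA was sequenced after Nextera XT library preparation.

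All mice were heterozygous for Cxcl12-GFP and for the R26R-tdTomato reporter. Mice of the Dlx5 group were in addition heterozygous for Dlx5-CreER, and those of the Fgfr3 group carried the Fgfr3-iCreER transgene. Each mouse therefore had GFP in place of *Cxcl12* on 1 allele, and each was exposed to tamoxifen once, at E12.5. Labelling requires activity of the creER driver at the time of tamoxifen, and the Fgfr3-creER driver is an artificial chromosome inserted in the genome. Cells of littermates were pooled by genotype before sorting, so a library stands for a pool of mice. The study calls the libraries of a lineage biological replicates, and how many mice each library holds is not clear from its figure legend. Femurs were digested without their distal growth plate or their proximal end. Total counts were 32563758, 22035650 and 27135553 in Dlx5 replicates 1, 2 and 3, and 56355203 and 58166285 in Fgfr3 replicates 2 and 3, as the labels number them. Taking 3 counts as the smallest detectable amount, the floor lay between 0.0516 and 0.136 CPM, the counts scaled by library total. Such floors account for counting error alone. The study's methods give a different sequencer and read length for each lineage, and the labels name the same sequencer for all libraries. Under the methods' account, these differences and the lineage cannot be told apart.

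Bone matrix is laid down by osteoblasts as collagen and then filled with calcium phosphate crystals. Tissue-nonspecific alkaline phosphatase, encoded by *Alpl*, frees phosphate and removes pyrophosphate, an inhibitor of mineral, and a set of acidic secreted proteins binds calcium and cells. Osteoblasts that become buried turn into osteocytes, which make *Dmp1*, *Phex* and *Mepe*, genes that tie mineralization to the control of phosphate in the whole body. *Ibsp*, *Spp1*, *Dmp1* and *Mepe* belong to the SIBLING family, whose genes stand side by side, and RUNX2 is the transcription factor most closely tied to the osteoblast program.

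The 4 SIBLING genes lay within 238 kb on the plus strand of chromosome 5 of GRCm38, from 104202613 to 104441050, in the order *Dmp1*, *Ibsp*, *Mepe* and *Spp1*. *Bglap* and *Bglap2* lay on the minus strand of chromosome 3, with the third osteocalcin copy, *Bglap3*, next to them. Promoter windows of RefSeq on GRCm38.p6, which run from 250 bases before to 50 bases after a start site, were matched for 9 of the 10 genes, with 12 windows in all, and *Bglap2* was not matched. The RUNX core ACCACA, or TGTGGT on the other strand, occurred in 5 of these 12 windows, those of *Bglap*, *Spp1*, *Sparc*, *Dmp1* and *Mepe*, while 16.8% of all 32851 windows held it. The homeobox core TAATTA, which reads the same on both strands, occurred in 2 of the 12, in *Spp1* and *Mepe*, against 5.29% of all windows. A match describes the letters of a window and is not evidence of binding. The windows of *Spp1*, *Dmp1* and the classical RUNX2 target *Bglap* are shown without their 50 bases after the start, with the RUNX core in capitals. The *Spp1* stretch is chr5:104434861-104435110 on the plus strand, with the core starting 128 bases before the start site, the *Dmp1* stretch is chr5:104202367-104202616 on the plus strand, with the core at 164 bases, and the *Bglap* stretch is chr3:88384467-88384716 on the minus strand, with the core at 132 bases.
*Spp1*: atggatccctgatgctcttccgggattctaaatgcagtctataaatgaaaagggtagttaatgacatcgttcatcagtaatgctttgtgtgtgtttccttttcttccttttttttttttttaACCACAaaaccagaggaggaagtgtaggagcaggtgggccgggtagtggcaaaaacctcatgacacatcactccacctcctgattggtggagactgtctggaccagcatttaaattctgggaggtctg
*Dmp1*: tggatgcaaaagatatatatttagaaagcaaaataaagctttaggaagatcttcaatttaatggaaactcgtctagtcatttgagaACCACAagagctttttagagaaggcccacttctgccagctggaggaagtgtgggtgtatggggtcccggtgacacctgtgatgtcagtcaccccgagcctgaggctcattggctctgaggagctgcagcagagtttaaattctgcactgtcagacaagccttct
*Bglap*: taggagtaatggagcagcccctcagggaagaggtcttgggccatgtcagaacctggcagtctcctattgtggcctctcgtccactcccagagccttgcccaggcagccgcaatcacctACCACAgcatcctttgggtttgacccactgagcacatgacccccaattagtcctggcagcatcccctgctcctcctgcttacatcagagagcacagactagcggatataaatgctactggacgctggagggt

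Of the 10 genes, 8 reached 10 CPM in at least 2 libraries and were tested between the lineages together with all other protein-coding genes and reporter sequences, 10093 in total. Each of these 8 reached 10 CPM in at least 1 library of each lineage, so none entered the test through a single lineage. *Ifitm5* reached 10 CPM in 1 library and *Mepe* in none. Calls required an adjusted p under 0.05 and a change above 2-fold in the quasi-likelihood test of edgeR, adjusted after Benjamini and Hochberg. By this rule 3 of the 8 genes, *Alpl*, *Spp1* and *Dmp1*, were higher in the Fgfr3 libraries, where 16.4% of all tested genes were called (1655 genes), and 1 of the 8, *Phex*, was higher in the Dlx5 libraries, where 13.1% were called (1320 genes). Without Fgfr3 replicate 3 the number of genes called higher in the Fgfr3 libraries was 997. When libraries were scaled by their size alone, genes higher in the Fgfr3 libraries made up 66.3% of those called, against 55.6% with TMM, and over all tested genes the log2 fold change had a median of 0.22 in place of 0.01. With TMM, the median of the 8 bone matrix genes was 0.60. In bulk samples, a lower level from fewer cells of a type and one from less RNA per cell cannot be told apart.

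**Figure D1:**
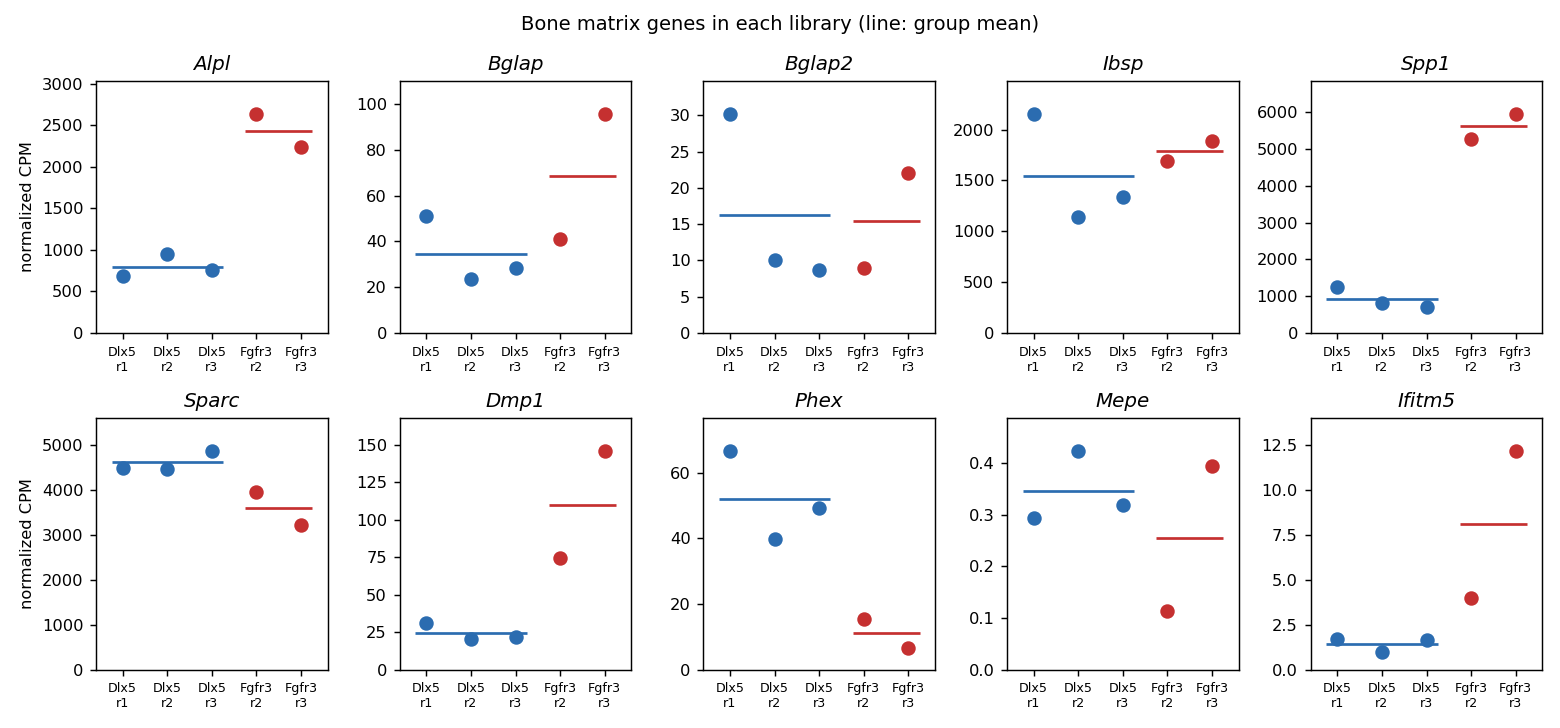
Normalized CPM of each of the 10 genes (vertical axes, linear and starting at 0, scaled per gene) in Dlx5 replicates 1, 2 and 3 (blue) and Fgfr3 replicates 2 and 3 (red), with the group mean as a line. *Alpl*, *Spp1*, *Dmp1* and *Ifitm5* are higher in both Fgfr3 libraries than in any Dlx5 library, *Phex* and *Sparc* are lower, and the groups overlap for the other genes.

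Among the genes that start mineralization, *Alpl* (ENSMUSG00000028766, chromosome 4) had a normalized CPM of 682, 946 and 759 in Dlx5 replicates 1, 2 and 3 and of 2637 and 2236 in Fgfr3 replicates 2 and 3. Every Fgfr3 library was far above every Dlx5 library, and replicates within a lineage lay close together. The means were 796 ± 135 (SD, n = 3) and 2436 ± 284 (SD, n = 2), 3.06-fold higher in the Fgfr3 libraries, and the log2 fold change of 1.61 (standard error 0.19) was larger than the spread between libraries (adjusted p = 0.00077, edgeR quasi-likelihood test, Benjamini-Hochberg).

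*Sparc* (ENSMUSG00000018593, chromosome 11) encodes osteonectin, a collagen-binding and calcium-binding glycoprotein of bone and many other connective tissues. Its normalized CPM was 4493, 4468 and 4875 in the Dlx5 libraries and 3961 and 3219 in the Fgfr3 libraries. Both Fgfr3 libraries were below all Dlx5 libraries, by a small margin. The log2 fold change was -0.36 (standard error 0.18) and the gene was not called (adjusted p = 0.144, edgeR quasi-likelihood test, Benjamini-Hochberg).

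*Spp1* (ENSMUSG00000029304, chromosome 5) encodes osteopontin, a phosphoprotein that binds integrins and CD44 and slows crystal growth. In the Dlx5 libraries its normalized CPM was 1242, 806 and 714, and in the Fgfr3 libraries it was 5272 and 5948. The lineages were widely separated, with Dlx5 replicate 1 the highest of its group. The means were 921 ± 282 (SD, n = 3) and 5610 ± 478 (SD, n = 2), 6.09-fold higher in the Fgfr3 libraries. The test gave a log2 fold change of 2.61 with a standard error of 0.27 (adjusted p = 0.00039, edgeR quasi-likelihood test, Benjamini-Hochberg), the largest rise among the 8 tested genes. Exons of *Spp1* overlap those of Gm42793, an annotated transcript of unsettled status on the same strand, over 18.8% of their length, and the effect on the count was not measured.

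*Ibsp* (ENSMUSG00000029306, chromosome 5) encodes bone sialoprotein, which is secreted by osteoblasts and hypertrophic chondrocytes and seeds mineral. Its normalized CPM was 2154, 1140 and 1336 in the Dlx5 libraries and 1693 and 1885 in the Fgfr3 libraries. Here the groups overlapped, since Dlx5 replicate 1 held the highest value of all libraries and the other Dlx5 libraries the lowest. The log2 fold change of 0.21 (standard error 0.28) was within the spread between libraries (adjusted p = 0.565, edgeR quasi-likelihood test, Benjamini-Hochberg). *Ibsp* and *Spp1*, neighbours of the same family, can be compared by the ratio of their counts, which needs no scaling between libraries. There were 0.577, 0.707 and 0.534 *Spp1* counts per *Ibsp* count in the Dlx5 libraries, and 3.11 and 3.16 in the Fgfr3 libraries. The ratio was nearly equal in both Fgfr3 libraries and above 1 only there. Counts of *Alpl* per count of *Sparc* were 0.152, 0.212 and 0.156 in the Dlx5 libraries and 0.666 and 0.694 in the Fgfr3 libraries, again without overlap.

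**Figure D2:**
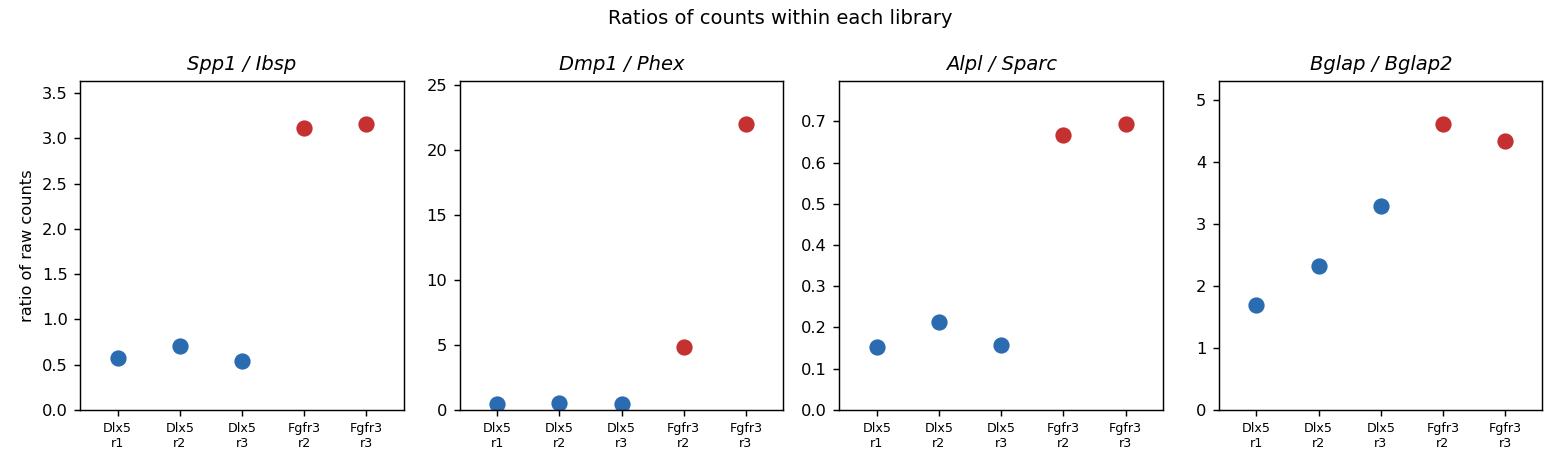
Ratio of the raw counts of 2 genes within each library (vertical axes, linear and starting at 0) for the Dlx5 (blue) and Fgfr3 (red) replicates. *Spp1* per *Ibsp* and *Alpl* per *Sparc* separate the lineages with little spread in the Fgfr3 libraries, while *Dmp1* per *Phex* separates them with a wide gap between Fgfr3 replicates 2 and 3.

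*Bglap* and *Bglap2* encode osteocalcin, a small protein of mature osteoblasts that binds mineral after vitamin K-dependent carboxylation. Their longest transcripts were identical at 434 of 440 aligned bases (98.6%), and of the 50-base windows of their transcripts, 51.3% of those of *Bglap* and 69.2% of those of *Bglap2* occurred in the other gene. A read of 50 bases can therefore fall where the copies do not differ, and the division of counts between them is uncertain. The coding stretch of 60 bases within 1 exon where they differ most is given to show how little separates them, with the differing bases in capitals, from exon 1 of *Bglap* at chr3:88384356-88384415 and exon 1 of *Bglap2* at chr3:88378591-88378650, both on the minus strand of GRCm38. It holds 3 of the 4 differences among 285 coding bases.
*Bglap*: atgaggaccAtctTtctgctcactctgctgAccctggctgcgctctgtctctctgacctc
*Bglap2*: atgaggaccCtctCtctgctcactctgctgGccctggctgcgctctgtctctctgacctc

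*Bglap* (ENSMUSG00000074483) had a normalized CPM of 51.1, 23.5 and 28.4 in the Dlx5 libraries and of 41.2 and 95.6 in the Fgfr3 libraries. Dlx5 replicate 1 lay above Fgfr3 replicate 2, so the groups overlapped, and Fgfr3 replicate 3 stood apart as the highest. The log2 fold change of 0.99 (standard error 0.43) was not called (adjusted p = 0.0957, edgeR quasi-likelihood test, Benjamini-Hochberg). That outcome depended on single libraries, on scaling and on a block for the replicate number. With that block *Bglap* was called, with a log2 fold change of 1.28 (adjusted p = 0.0139, same edgeR test). Number 1 occurs only in the Dlx5 libraries, so the block sets Dlx5 replicate 1 apart, much as leaving it out does. The log2 fold change was 1.40 without Dlx5 replicate 1 (adjusted p = 0.0358, same edgeR test) and 1.55 without Fgfr3 replicate 2 (adjusted p = 0.0254, same edgeR test), and both would be called. It was 0.32 without Fgfr3 replicate 3 (adjusted p = 0.589, same edgeR test). Scaling by library size alone gave 1.20 and removal of a trend on transcript length gave 1.48, also called, and over all 15 alternatives the adjusted p of the tests ran from 0.0139 to 0.589.

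For *Bglap2* (ENSMUSG00000074486) the normalized CPM was 30.2, 10.1 and 8.67 in the Dlx5 libraries and 8.94 and 22.1 in the Fgfr3 libraries. The highest value was that of Dlx5 replicate 1, the lineages overlapped throughout, and the log2 fold change of -0.08 (standard error 0.61) was not called (adjusted p = 0.925, edgeR quasi-likelihood test, Benjamini-Hochberg). *Bglap3*, which is expressed outside bone as well, had 4, 7 and 3 counts in the Dlx5 libraries and 93 and 138 in the Fgfr3 libraries. When the counts of the 3 osteocalcin genes were added, the normalized CPM was 81.4, 33.9 and 37.2 in the Dlx5 libraries and 51.6 and 119.8 in the Fgfr3 libraries. The summed gene overlapped between lineages as *Bglap* and *Bglap2* did, while *Bglap3*, a small part of the sum, was higher in both Fgfr3 libraries than in every Dlx5 library. The sum had a log2 fold change of 0.75 with a standard error of 0.47 (adjusted p = 0.224, edgeR quasi-likelihood test, Benjamini-Hochberg). Counts of *Bglap* per count of *Bglap2* were 1.69, 2.32 and 3.28 in the Dlx5 libraries and 4.61 and 4.33 in the Fgfr3 libraries. The division between the copies thus differed between lineages and among the Dlx5 libraries, and read length, which the study's methods give as different between the lineages, cannot be told apart from lineage here.

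*Ifitm5* (ENSMUSG00000025489, chromosome 7), also called bone-restricted IFITM-like protein, is a membrane protein of osteoblasts at the time of mineralization. It had 53, 21 and 41 counts in the Dlx5 libraries and 246 and 774 in the Fgfr3 libraries, a normalized CPM of 1.73, 0.989 and 1.63 against 4 and 12.2. All values were low, and both Fgfr3 libraries were above all Dlx5 libraries. In a fit of the 13235 genes with at least 1 CPM in at least 2 libraries, 9 of the 10 bone matrix genes were tested and 4 were called higher in the Fgfr3 libraries, *Ifitm5* being the addition, where 16.6% of all genes in that fit were called. Its log2 fold change of 2.45 with a standard error of 0.54 (adjusted p = 0.0103, edgeR quasi-likelihood test, Benjamini-Hochberg) was 1.46 without Fgfr3 replicate 3, where it was no longer called (adjusted p = 0.0976, same edgeR test), and 3.07 without Fgfr3 replicate 2. Over its 15 alternatives the adjusted p ran from 0.000114 to 0.0976. Exons of *Ifitm5* overlap those of Gm45717 on the same strand over 29.7% of their length, and the effect on its count was not measured.

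Among the genes that mark the passage to osteocytes, *Dmp1* (ENSMUSG00000029307, chromosome 5) encodes a phosphoprotein that nucleates mineral and limits FGF23 production. Its normalized CPM was 31.0, 20.7 and 21.6 in the Dlx5 libraries and 74.2 and 146 in the Fgfr3 libraries. Every Fgfr3 library exceeded every Dlx5 library, although the Fgfr3 libraries themselves differed by 1.97-fold. The means were 24.4 ± 5.72 (SD, n = 3) and 110 ± 50.6 (SD, n = 2), 4.51-fold higher in the Fgfr3 libraries. Between lineages the log2 fold change was 2.17 (standard error 0.31; adjusted p = 0.00154, edgeR quasi-likelihood test, Benjamini-Hochberg), and ran from 1.66 to 2.65 when each library was left out in turn.

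*Phex* (ENSMUSG00000057457, chromosome X) encodes an endopeptidase of osteoblasts and osteocytes whose loss raises FGF23 and causes X-linked hypophosphatemia. It went the other way, with a normalized CPM of 66.7, 39.9 and 49.2 in the Dlx5 libraries and of 15.5 and 6.63 in the Fgfr3 libraries. Every Fgfr3 library was below every Dlx5 library, with Fgfr3 replicate 3 the lowest of all. The means were 52.0 ± 13.6 (SD, n = 3) and 11.1 ± 6.26 (SD, n = 2), 4.70-fold higher in the Dlx5 libraries, with a log2 fold change of -2.23 with a standard error of 0.41 (adjusted p = 0.00413, edgeR quasi-likelihood test, Benjamini-Hochberg). Without Fgfr3 replicate 2 the log2 fold change was -2.90, and in the other fits with a library left out it was no closer to 0 than -1.69. *Dmp1* and *Phex*, which act in the same phosphate pathway, therefore parted between the lineages. There were 0.465, 0.518 and 0.438 *Dmp1* counts per *Phex* count in the Dlx5 libraries, and 4.79 and 22 in the Fgfr3 libraries.

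*Mepe* (ENSMUSG00000053863, chromosome 5), an osteocyte gene whose product can release a peptide that inhibits mineralization, was close to the floor. It had 9, 9 and 8 counts in the Dlx5 libraries and 7 and 25 in the Fgfr3 libraries. The corresponding normalized CPM was between 0.114 and 0.424, the groups overlapped, and the gene reached 1 CPM in no library, so the filters left it out of the fits with 10 CPM and 1 CPM.

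**Figure D3:**
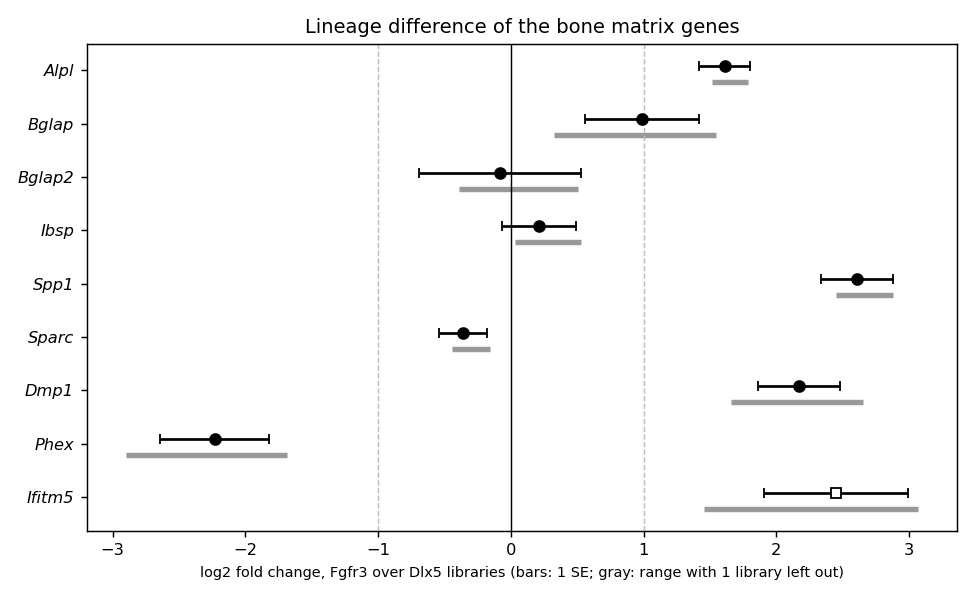
Log2 fold change of Fgfr3 over Dlx5 libraries (horizontal axis) for the 9 genes that passed the 1 CPM filter, with 1 standard error as bars, the range over the fits that left out 1 library in gray, and dashed lines at 2-fold. The open square for *Ifitm5* comes from the fit with the 1 CPM filter. *Spp1*, *Dmp1*, *Alpl* and *Ifitm5* lie right of the 2-fold line, *Phex* lies left of it at -2.23, and the gray range of *Bglap* runs from 0.32 to 1.55, across the line.

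Of the 8 tested genes, 3 were higher in every Fgfr3 library than in every Dlx5 library (34.8% of all tested genes were) and 2 were lower in every Fgfr3 library (34.1% of all tested genes). The groups overlapped for the other 3, *Bglap*, *Bglap2* and *Ibsp*. In each of these 3 the value of Dlx5 replicate 1 exceeded that of Fgfr3 replicate 2. Dlx5 replicate 1 was the highest Dlx5 library for 6 of the 8 genes, all but *Alpl* and *Sparc*, and it was the highest for 39.5% of all tested genes. In 1 of the 8, *Bglap2*, it was more than 2-fold above both other Dlx5 libraries, at 2.98-fold and 3.48-fold, as in 1.03% of all tested genes. The same library also had the highest summed level of the erythroid markers, 36393 normalized CPM against 17867 and 23507 in Dlx5 replicates 2 and 3. The part of these cells in the result was not tested.

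Levels of different genes were compared per kilobase of merged exons. In the Dlx5 libraries *Sparc* was the most abundant of the 10 genes on this scale, with a mean of 1217 ± 60.2 normalized CPM per kilobase (SD, n = 3), and *Ibsp* followed with 746 ± 260. *Spp1*, with 559 ± 171 normalized CPM per kilobase, was below *Ibsp* in each Dlx5 library, and *Alpl* was lower still, with 197 ± 33.6. In the Fgfr3 libraries the order at the top was another, with *Spp1* first at a mean of 3404 ± 290 normalized CPM per kilobase (SD, n = 2). *Sparc* and *Ibsp* came next with 948 ± 139 and 865 ± 65.6 normalized CPM per kilobase, with *Sparc* above *Ibsp* in replicate 2 and below it in replicate 3, and *Alpl* followed with 604 ± 70.3. The osteocalcin genes were lower than *Alpl* in every library, with means per kilobase of 55.5 ± 23.8 for *Bglap* and 34.7 ± 25.5 for *Bglap2* in the Dlx5 libraries and of 111 ± 62.2 and 32.9 ± 19.7 in the Fgfr3 libraries.

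At the osteocyte end the levels were small. *Dmp1* and *Phex* stood at nearly the same level per kilobase in the Dlx5 libraries, 8.83 ± 2.07 and 8.26 ± 2.16 normalized CPM per kilobase, and apart in the Fgfr3 libraries, 39.8 ± 18.3 and 1.76 ± 0.996. *Ifitm5* had 1.89 ± 0.525 normalized CPM per kilobase in the Dlx5 libraries and 10.6 ± 7.59 in the Fgfr3 libraries, and *Mepe* was the lowest gene of both lineages, with 0.205 ± 0.0411 and 0.151 ± 0.118. Together the 10 genes took 0.824%, 0.718% and 0.722% of all counts in the Dlx5 libraries and 1.5% and 1.48% in the Fgfr3 libraries. Of these counts, *Sparc* made up 51.3%, 59.9% and 62.5% in the Dlx5 libraries and 28.9% and 23.7% in the Fgfr3 libraries. The share of *Spp1* was 14.2%, 10.8% and 9.16% in the Dlx5 libraries and 38.5% and 43.8% in the Fgfr3 libraries, so that *Sparc* led in the Dlx5 libraries and *Spp1* in the Fgfr3 libraries.

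**Figure D4:**
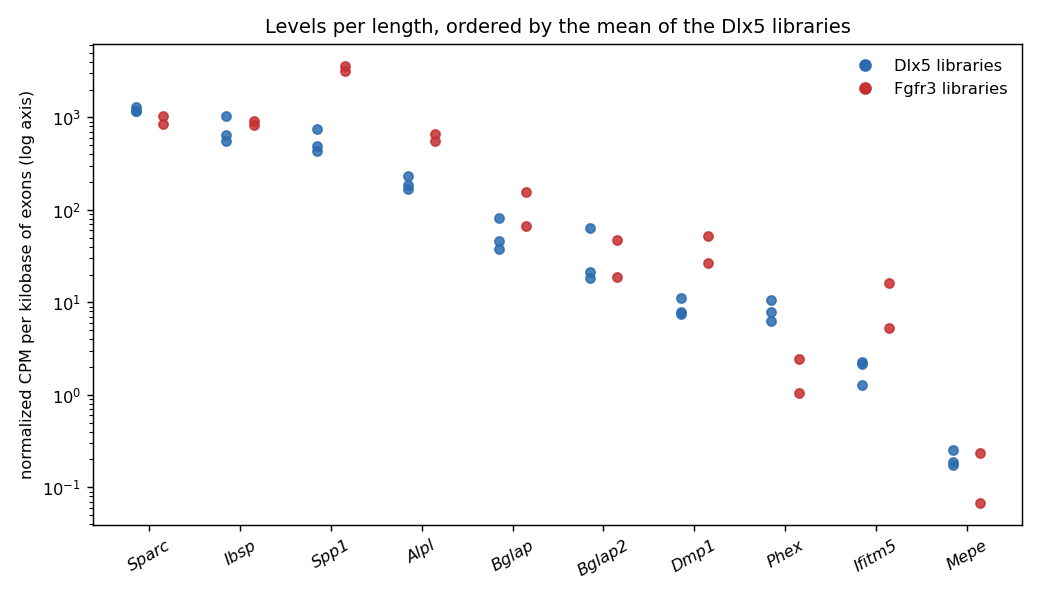
Normalized CPM per kilobase of merged exons (vertical axis, log scale) of the 10 genes in each Dlx5 (blue) and Fgfr3 (red) library, ordered by the Dlx5 mean. The Dlx5 means span from 1217 for *Sparc* to 0.205 for *Mepe*, and *Spp1* moves from the third place in the Dlx5 libraries to the first in the Fgfr3 libraries.

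Between the Fgfr3 libraries there is 1 library on each side, so the differences have no replicate check. Of the 8 tested genes, *Bglap* and *Bglap2* were more than 2-fold higher in replicate 3, at 2.32-fold and 2.47-fold, and 2.49% of all tested genes were past that fold in this direction. *Phex* was 2.34-fold higher in replicate 2, the direction in which 2.46% of all tested genes were past 2-fold. *Dmp1*, at 1.97-fold, fell just short of 2-fold and was higher in replicate 3. Below the filter, *Ifitm5* was 3.05-fold higher in replicate 3, and the 7 and 25 counts of *Mepe* differed in the same direction. *Alpl*, *Sparc*, *Ibsp* and *Spp1* were alike, at 1.18-fold and 1.23-fold higher in replicate 2 and 1.11-fold and 1.13-fold higher in replicate 3. The median log2 ratio of replicate 2 over replicate 3 was -0.16 for the 8 genes and 0.02 for all tested genes. Among the Dlx5 libraries the highest value was between 1.09 times the lowest for *Sparc* and 3.48 times the lowest for *Bglap2*.

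**Figure D5:**
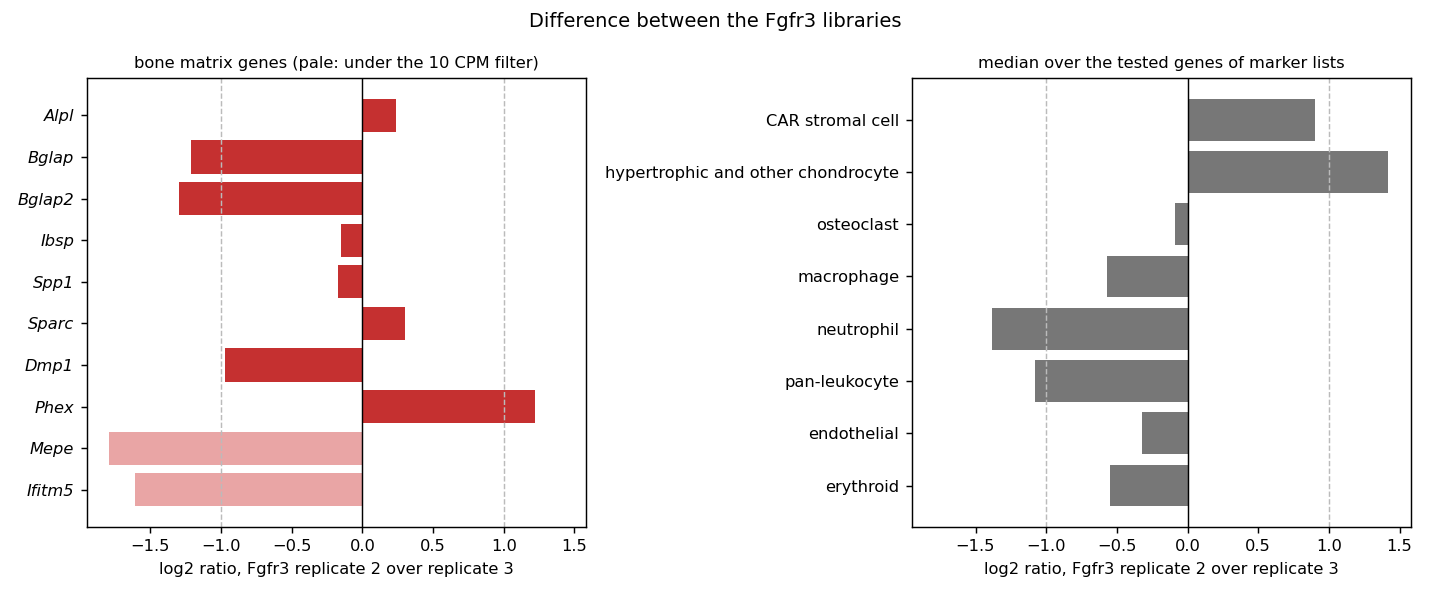
Log2 ratio of normalized CPM in Fgfr3 replicate 2 over replicate 3 (horizontal axes) for each of the 10 genes on the left and, on the right, its median over the tested genes of each marker list. Dashed lines mark 2-fold. *Bglap*, *Bglap2*, *Ifitm5* and *Mepe* lie left of the 2-fold lines, as do the neutrophil and pan-leukocyte lists, and *Phex* and the chondrocyte list lie right of them.

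Markers of other cells differed between the same libraries, and their counts of calls stand beside 16.4% of all tested genes called higher in the Fgfr3 libraries and 13.1% higher in the Dlx5 libraries. The 10 markers of CXCL12-abundant reticular (CAR) stromal cells were all tested, and their sum was 33472, 35450 and 34511 normalized CPM in the Dlx5 libraries and 13644 and 8900 in the Fgfr3 libraries. *Cxcl12* was the most abundant of them in the Dlx5 and Fgfr3 libraries alike, none was at the floor in either lineage, and 7 were called higher in the Dlx5 libraries and 1, the transcription factor gene *Foxc1*, higher in the Fgfr3 libraries. The sorted cells thus carried the markers of their label in every library. Between the Fgfr3 libraries, 9 of the 10 were higher in replicate 2 than in replicate 3, 4 of them by more than 2-fold, and *Foxc1* was higher in replicate 3, with a median log2 ratio of 0.90 over the list.

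Hypertrophic chondrocytes also make *Alpl*, *Ibsp* and *Spp1*. The summed level of the 10 chondrocyte markers was 140, 135 and 132 normalized CPM in the Dlx5 libraries and 3193 and 441 in the Fgfr3 libraries. *Col2a1* was the most abundant in the Fgfr3 libraries, with 2597 and 343, and *Sox9* in the Dlx5 libraries, with 124, 117 and 122. Of the list, 3 genes passed the filter and 2 of them, *Col2a1* and *Panx3*, were called higher in the Fgfr3 libraries, the only ones through which they passed the filter, so their direction follows from it. *Sox9*, the other, was not called, with a log2 fold change of -0.69. *Col10a1*, the defining collagen of hypertrophic cartilage, had 0 counts in each Dlx5 library and 1350 and 14 in Fgfr3 replicates 2 and 3, and *Col9a1* and *Matn1* were also at 0 in each Dlx5 library. The part of these cells in the results for *Alpl*, *Ibsp* and *Spp1* was not tested.

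Osteoclasts and macrophages also express *Spp1*. The 10 osteoclast markers summed to 321, 337 and 371 normalized CPM in the Dlx5 libraries and to 2845 and 2832 in the Fgfr3 libraries. Most of the sum in the Fgfr3 libraries was *Mmp9*, which neutrophils also express, with 2487 and 2458, while *Ctsk* was the most abundant in the Dlx5 libraries, with 176, 179 and 175. Of the 5 that were tested, 3 were called higher in the Fgfr3 libraries, namely *Acp5*, *Itgb3* and *Mmp9*, and the others, *Ctsk* and *Nfatc1*, were not called, with log2 fold changes of -0.05 and -0.11. *Calcr*, *Ocstamp* and *Dcstamp* had 0 counts in each Dlx5 library. *Ocstamp*, which drives osteoclast fusion, had 235 and 181 counts in the Fgfr3 libraries. The macrophage markers summed to 388, 511 and 447 normalized CPM in the Dlx5 libraries and to 1523 and 3459 in the Fgfr3 libraries, with *Lyz2* the most abundant and 6 of 8 tested genes called higher in the Fgfr3 libraries. Of these 6, *Cd68* passed the filter through the Fgfr3 libraries alone, and the others of the 8, *C1qa* and *Cd14*, were not called, with log2 fold changes of 0.77 and 0.95. The part of both lists in the result for *Spp1* was not tested.

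Blood cell markers also differed between the Fgfr3 libraries. All 10 neutrophil markers were called higher in the Fgfr3 libraries, with sums of 2612, 3102 and 2490 normalized CPM in the Dlx5 libraries and 6960 and 17137 in Fgfr3 replicates 2 and 3. *Ngp* was the most abundant of them in every library but Dlx5 replicate 1, where *Mpo* was, and *Ly6g* passed the filter through the Fgfr3 libraries alone, so its direction follows from it. All 10 pan-leukocyte markers were called in the same direction, and their sums were 405, 366 and 333 normalized CPM in the Dlx5 libraries and 1039 and 2156 in the Fgfr3 libraries, led by *Coro1a*. Of the erythroid markers, 2 of 10 were called, both higher in the Dlx5 libraries, where 13.1% of all tested genes were called, and the sums in the Fgfr3 libraries were 13944 and 20733, led by *Hbb-bs*. The endothelial markers were low throughout, with sums of 56.7, 50.2 and 32.5 normalized CPM in the Dlx5 libraries and 43.0 and 58.5 in the Fgfr3 libraries, and the 1 that was tested, *Pecam1*, was not called. No marker of the neutrophil, pan-leukocyte, macrophage, endothelial or erythroid lists was at the floor in all libraries of a lineage. The part of these cells in the results for the bone matrix genes was not tested.

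Genes that supply or restrain mineral beside the matrix proteins were also examined. Of 21 listed genes of the mineralization machinery, 18 were tested, of which 5 were called higher in the Fgfr3 libraries and 3 higher in the Dlx5 libraries, against 16.4% and 13.1% of all tested genes, and their median log2 fold change was 0.37 against 0.01 for all tested genes. The genes that rose included *Smpd3*, a sphingomyelinase needed for normal mineralization, with a normalized CPM of 1.70, 2.31 and 1.95 in the Dlx5 libraries and 51.9 and 46.2 in the Fgfr3 libraries. It passed the filter only through the Fgfr3 libraries, so its direction follows from the filter. *Fam20c*, the kinase that phosphorylates the SIBLING proteins, had 11.9, 11.1 and 13.3 in the Dlx5 libraries and 52.5 and 88.9 in the Fgfr3 libraries, a log2 fold change of 2.54. *Bmp1*, the protease that cleaves procollagen and DMP1, *Slc20a2*, a phosphate importer, and *Ank*, which exports pyrophosphate, had log2 fold changes of 1.46, 1.45 and 1.12. Those lower in the Fgfr3 libraries were *Mgp*, an inhibitor of calcification, the proprotein convertase gene *Pcsk5* and *Vkorc1* of the vitamin K cycle, with log2 fold changes of -2.29, -1.81 and -1.02, and *Mgp* passed the filter only through the Dlx5 libraries, so its direction follows from it too. *Enpp1*, which makes pyrophosphate, and the annexin genes *Anxa2*, *Anxa5* and *Anxa6* were not called, with log2 fold changes of -0.35, 0.52, 0.21 and 0.01.

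In the phosphate axis, 9 of 12 listed genes were found in the counts and 4 were tested. *Pth1r*, the receptor of parathyroid hormone, was called higher in the Fgfr3 libraries, as were 16.4% of all tested genes. *Xpr1*, the phosphate exporter, was called higher in the Dlx5 libraries, as were 13.1% of all tested genes, with a log2 fold change of -1.02. *Fgfr1* and *Vdr* were not called, with log2 fold changes of 0.63 and -0.15, and the median of the 4 was 0.24. *Fgf23*, the hormone gene that *Phex* and *Dmp1* restrain, had 8, 50 and 17 counts in the Dlx5 libraries and 0 and 31 in the Fgfr3 libraries. The counts of *Fgf23* overlapped between lineages, and *Kl*, its co-receptor gene, had at most 2 counts in any library.

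Of 19 listed genes of osteoblasts, 15 were tested, of which 3 were called higher in the Fgfr3 libraries and 1 higher in the Dlx5 libraries, where 16.4% and 13.1% of all tested genes were called, with a median log2 fold change of 0.66. *Sp7*, *Col1a1* and *Mmp13* were the 3, and the homeobox gene *Dlx6* was the 1, with a normalized CPM of 20.6, 29.3 and 29.3 in the Dlx5 libraries and 14.7 and 6.89 in the Fgfr3 libraries. The collagen I genes differed between the Fgfr3 libraries in the direction of *Bglap* and *Dmp1*, *Col1a1* with 2602 and 5182 normalized CPM in replicates 2 and 3 and *Col1a2* with 1550 and 3263. *Col1a2* was not called between the lineages, with a log2 fold change of -0.07, and neither were *Wif1*, *Atf4* and *Clec11a*, at 0.77, -0.61 and -0.05. *Runx2* had a normalized CPM of 134, 198 and 201 in the Dlx5 libraries and 129 and 94.6 in the Fgfr3 libraries. Both Fgfr3 libraries were below all Dlx5 libraries. *Runx2* was not called, with a log2 fold change of -0.67 (adjusted p = 0.0492, edgeR quasi-likelihood test, Benjamini-Hochberg).

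Of 14 listed osteocyte genes other than the matrix genes, 13 were found and 8 were tested, and their median log2 fold change was 0.66. The 3 that were called were higher in the Fgfr3 libraries, as were 16.4% of all tested genes. They were *Mmp14*, the membrane protease that osteocytes need to form their processes, the homeobox gene *Irx5* and the actin-capping gene *Capg*, with log2 fold changes of 3.06, 2.55 and 2.24. *Gja1*, which encodes the gap junction protein of osteocyte processes, and *Dstn*, *Tnfsf11* and *Cd44* were not called, with log2 fold changes of -0.70, 0.51, 0.68 and 0.65.

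Of 17 listed relatives of the matrix genes, 13 were found and 9 tested, of which 6 were called higher in the Dlx5 libraries, where 13.1% of all tested genes were called, and 1 higher in the Fgfr3 libraries, with a median log2 fold change of -1.28. The 4 found but not tested were low, at no more than 1.56 normalized CPM in any library. The *Sparc* relatives *Smoc1*, *Sparcl1* and *Fstl1* had log2 fold changes of -2.28, -1.33 and -1.19, while *Smoc2* had one of 2.22. *Fstl1* was abundant, with a normalized CPM of 5813, 5129 and 4838 in the Dlx5 libraries and 2894 and 1714 in the Fgfr3 libraries. *Ifitm1* and *Ifitm3*, interferon-induced relatives of *Ifitm5*, had log2 fold changes of -1.73 and -1.28, opposite to that of *Ifitm5*, and *Ifitm2* was not called, with -0.90. *Mme*, a membrane peptidase of the same family as *Phex*, had a log2 fold change of -1.32, and *Ece1*, another of that family, was not called, with -1.05.

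Receptors for osteopontin and the other SIBLING proteins were on the list of 12 receptors, of which 8 were tested. Beside shares of 16.4% and 13.1% of all tested genes called in each direction, 3 were called higher in the Fgfr3 libraries and 1 in the Dlx5 libraries. The integrin genes *Itgb5*, *Itgb3* and *Itga9* were called higher in the Fgfr3 libraries, with log2 fold changes of 3.92, 2.19 and 1.88, and *Itga8* was called higher in the Dlx5 libraries, with -1.58. The normalized CPM of *Itgb5* was 16.5, 18.7 and 23.3 in the Dlx5 libraries and 247 and 346 in the Fgfr3 libraries. *Itgb3* is also on the osteoclast list. The median log2 fold change of the 8 was 0.67, and *Itgb1*, *Itgav*, *Itga5* and *Cd44* were not called, with 0.69, -0.29, 0.09 and 0.65.

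The 5 genes whose profile over the 5 libraries lay nearest to the median profile of the 8 tested bone matrix genes were *Polm*, *Oma1*, *Ppil1*, *Prr13* and *Glipr2*, at Euclidean distances of 0.214 to 0.248 on the centred log2 scale. The nearest of the bone matrix genes themselves was *Bglap*, at 0.573, and the farthest was *Phex*, at 3.6. The median profile thus described none of the members closely. In its centred log2 values it was 0.19, -0.47 and -0.63 in the Dlx5 libraries and 0.02 and 0.76 in the Fgfr3 libraries, a shape in which Dlx5 replicate 1 and Fgfr3 replicate 3 were high.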

How the data were processed

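RNA was measured in 5 libraries of sorted cells, 3 of Dlx5CE-E12.5 and 2 of Fgfr3CE-E12.5 cells. The deposited values are raw counts per Ensembl gene, which the authors made from reads aligned to mm10 with TopHat2 2.0.13 and Bowtie2 2.2.1. Their notes also name HTSeq without a role, and the strand setting was not given. Of 30046 features, 29996 matched GENCODE M21 and 5 were reporter sequences. Protein-coding genes and reporters with at least 10 CPM in at least 2 of the 5 libraries (10093) were normalized by TMM and tested with edgeR 4.0.16 in R 4.3.3 by the quasi-likelihood test, Fgfr3 over Dlx5, with Benjamini-Hochberg adjustment. A gene was called when its adjusted p was under 0.05 and its absolute log2 fold change exceeded 1, so some genes that were not called passed the adjusted p alone. A second fit used at least 1 CPM (13235 genes). Standard errors were derived from the fold change and the F statistic. DESeq2 1.42.0, another scaling, other filters, removal of GC and length trends, and leaving out each library were tried as alternatives, 16 settings in all.

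The 10 bone matrix genes were all named. From each list of related genes (mineralization machinery, phosphate axis, osteoblast, osteocyte, relatives of the SIBLING and SPARC families, receptors), the called genes and up to 4 tested genes that were not called were named. *Bglap3*, *Runx2*, *Fgf23* and *Kl* were named after their values were seen. Marker lists covered CAR stromal cells, chondrocytes, osteoclasts, macrophages, neutrophils, all leukocytes, endothelium and the erythroid lineage. The bone matrix genes and the lists were chosen with earlier results of these data known. Listed genes that were not found in the counts were not analysed here.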

Additional observations from a re-analysis of the deposited data

How the results depend on the processing

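*Alpl*, *Spp1* and *Dmp1* were called higher in the Fgfr3 libraries, and *Phex* higher in the Dlx5 libraries, under all 16 alternative settings, and *Sparc*, *Ibsp* and *Bglap2* were called under none in which they were tested. *Bglap* was called under 5 of 15 alternatives, and *Ifitm5* under all of its 15 but the fit without Fgfr3 replicate 3. When each library was left out in turn, the number of genes called higher in the Fgfr3 libraries ran from 997 to 1682 and the number called higher in the Dlx5 libraries from 1029 to 1465. The fits without an Fgfr3 library leave that lineage with 1 library, which is assumed to vary like the others, and hold fewer libraries than the fit of all 5.

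Replicate numbers 2 and 3 occur in both lineages, and the labels do not say whether a shared number pairs the libraries. The Dlx5 and Fgfr3 libraries came from mice of different genotypes. The deviations from the lineage means correlated across genes with r = 0.121 and -0.045 for the libraries of the same number and with r from -0.121 to 0.116 for those of different numbers. With 2 Fgfr3 libraries their deviations mirror each other, and genes are not independent replicates. With the replicate number as a block, 1681 genes were called higher in the Fgfr3 libraries and 1386 higher in the Dlx5 libraries, 2842 of them shared with the 2975 calls without it. *Bglap* was then called, with a log2 fold change of 1.28 (adjusted p = 0.0139 in edgeR, in a range of 0.0139 to 0.589 over its alternatives). Replicate number 1 occurs only in the Dlx5 libraries, so with the block the lineage difference rests on replicates 2 and 3 of each lineage. The block is therefore close to leaving out Dlx5 replicate 1, which gave *Bglap* a log2 fold change of 1.40.

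Low counts limit *Mepe* and *Ifitm5*, and 2 Fgfr3 libraries limit every comparison. The lineages also differ in sequencer and read length by the study's methods, in the levels of blood, osteoclast and chondrocyte markers, and in the driver line. None of these can be told apart from lineage here.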
